A study of Mus musculus with 6 samples.

Results

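Circadian clock genes were examined in bulk RNA sequencing of infarcted and peri-infarcted hearts, which were collected on day 7 post-MI from WT and *Crlf2-/-* animals. The 10 genes were *Per1*, *Per2*, *Per3*, *Ciart*, *Bhlhe41*, *Nr1d1*, *Nr1d2*, *Dbp*, *Tef* and *Arntl*. They were taken by symbol from the 54532 genes listed, and all 10 were among the 15520 genes tested. All 6 mice were labelled C57BL/6 (C57BL/6J in the study's methods) and were housed under alternating light and dark. All had the left anterior descending artery tied off for good. Each group held 3 mice, with 1 library per mouse. WT mice carried no engineered allele, whereas *Crlf2-/-* mice were knockouts of *Crlf2*, the gene of the TSLP receptor chain. The study's methods describe adult male mice bought from a breeder, and knockouts made by another supplier. Sex and age of the knockouts are not given separately in the sources used here. The methods do not say whether the WT mice sequenced were the bought ones, so genotype and source of the mice cannot be told apart. The labels give the day of collection and no hour. The comparisons asked whether clock transcripts differed between the groups, and whether single libraries differed from each other along the clock.

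The molecular clock is a feedback loop that runs in nearly all cells, cardiomyocytes included. ARNTL (also called BMAL1) pairs with CLOCK or NPAS2 and switches on genes with E-box elements, among them the PER, CRY, CIART and BHLHE41 repressors, which in turn inhibit the pair. The same activators drive *Nr1d1* and *Nr1d2*, whose REV-ERB proteins repress *Arntl* through RORE elements, and *Dbp* and *Tef*, whose products act on D-box elements. In a running clock the *Arntl* transcript therefore peaks at another time of day than the transcripts of the E-box and D-box genes, and levels of these genes in a tissue depend on the hour of sampling.

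These elements were searched for in RefSeq promoter windows (GRCm38.p6), which run from 250 bases before to 50 bases after an annotated start. Windows were found for 9 of the 10 genes, 12 windows in all, and *Per2* had none. The letters searched, on both strands, were CACGTG for the E-box, CACGTT for its noncanonical form, TTATGTAA or TTACGTAA for the D-box and TAGGTCA for the RORE. None of these motifs contains the letters of another. Over 32851 windows of all genes, 7.15% held the E-box, 4.68% the noncanonical E-box, 1.06% a D-box and 2.61% the RORE. *Ciart* had 3 E-boxes, at -116, -58 and -44 from its start. *Per1* (at -166), *Tef* (at -127 and -138 in 2 windows) and *Bhlhe41* (at -153) had E-boxes too, *Per3* had 2 D-boxes, at -205 and -158, and *Nr1d1* had a noncanonical E-box at -28 (read as AACGTG, the other strand of CACGTT). *Arntl* held a RORE in 1 of its windows, at 31 from the annotated start and downstream of it. *Dbp* and *Nr1d2* held none of these letters in the windows searched. A match is a run of letters and was not tested for binding. The stretches are shown for *Ciart*, the gene with the widest range over libraries, for *Per3*, whose match was to the D-box, for *Tef*, which ran against *Arntl*, and for *Arntl* itself, with the matched letters in capitals. They lie outside annotated exons, except that the *Arntl* site of 30 bases is inside an exon of that gene. On the GRCm38 build they are chr3:95882252-95882478 (minus strand), chr4:151044666-151044915 (minus strand), chr15:81811164-81811413 (plus strand) and chr7:113207530-113207559 (plus strand).
Ciart: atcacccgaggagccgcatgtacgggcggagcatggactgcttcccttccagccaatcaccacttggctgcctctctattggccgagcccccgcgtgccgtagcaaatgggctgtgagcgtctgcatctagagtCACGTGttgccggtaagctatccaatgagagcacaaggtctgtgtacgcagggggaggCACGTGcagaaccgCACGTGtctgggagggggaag
Per3: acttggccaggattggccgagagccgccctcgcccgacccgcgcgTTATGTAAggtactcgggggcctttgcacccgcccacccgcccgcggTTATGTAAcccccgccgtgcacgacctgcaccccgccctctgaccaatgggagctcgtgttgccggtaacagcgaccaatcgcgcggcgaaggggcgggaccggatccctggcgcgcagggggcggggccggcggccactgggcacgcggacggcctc
Tef: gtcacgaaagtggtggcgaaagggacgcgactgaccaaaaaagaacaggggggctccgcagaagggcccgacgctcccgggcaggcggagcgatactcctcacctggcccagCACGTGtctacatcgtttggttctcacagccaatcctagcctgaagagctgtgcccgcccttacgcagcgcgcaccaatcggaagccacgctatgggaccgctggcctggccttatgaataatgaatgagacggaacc
Arntl: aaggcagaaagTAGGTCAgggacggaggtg

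The libraries held 18508646 to 18973594 fragments on listed genes in WT and 18578175 to 19682428 in *Crlf2-/-* mice, and Pearson's r between libraries, across genes, was 0.971 to 0.986. *Crlf2* was at 26.7, 24.8 and 21.6 FPKM in WT replicates 1, 2 and 3 and at 13.3, 18.6 and 19.9 FPKM in *Crlf2-/-* replicates 1, 2 and 3. Every *Crlf2-/-* library was thus below every WT library, with a log2 fold change of -0.51 (standard error 0.16, limma adjusted p = 0.525), and transcripts assigned to the gene remained in all of them. The summed level of 9 cardiomyocyte markers was 1237 to 2218 FPKM in WT and 837 to 1563 FPKM in *Crlf2-/-* libraries. All 9 had a log2 fold change below 0. Limma called 0 of them, and 3 were at an unadjusted p under 0.05, beside 6.54% of all tested genes. Less tissue of a cell type and less RNA per cell cannot be told apart in such bulk samples. Red blood cell markers summed to 226 to 365 FPKM in WT and to 85.7 to 160.6 FPKM in *Crlf2-/-* libraries, and T cell markers to 14.3 to 21.5 and 8.53 to 10.8 FPKM. At an unadjusted p under 0.05 were 5 of 5 red blood cell markers and 6 of 7 T cell markers. As many, 5 and 6, were lower in every *Crlf2-/-* library than in every WT library, where 11.8% of all tested genes had no overlap in either direction. Retina markers, looked at because the labelled extraction text speaks of retina, stayed at or under 0.110 FPKM in sum. *Crlf2-/-* replicate 2 stood apart in atrial markers (11.95 FPKM in sum, at most 1.13 FPKM elsewhere), and WT replicate 3 in lung markers (10.2 FPKM, at most 1.66 FPKM elsewhere). The part of these tissue differences in the levels below was not tested.

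No clock gene among the 10 was called different between *Crlf2-/-* and WT hearts, where a call needed an adjusted p of 0.05 or less together with a log2 fold change of 0.5 or more in size. The test was limma on log2(FPKM + 0.1), with p-values adjusted by Benjamini-Hochberg over all 15520 genes. By these thresholds 0.0129% of all tested genes were called, which is 2 genes. The smallest adjusted p among the 10 genes was 0.725. At an unadjusted p under 0.05 there was 1 of the 10, *Nr1d1*, beside 6.54% of all tested genes. With limma's voom on the fragments there were 0 called and 2 at an unadjusted p under 0.05. The groups overlapped for 10 of 10 genes, whereas they did not overlap for 11.8% of all tested genes. Of the 10 estimates, 7 were above 0 and 3 were below, with a median log2 fold change of 0.12 beside -0.000458 over all tested genes.

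The period genes encode the repressors at the centre of the loop. *Per1* (ENSMUSG00000020893, chromosome 11, 69095217 to 69109960, plus strand) was at 3.87, 4.23 and 6.32 FPKM in WT replicates 1, 2 and 3 and at 5.03, 3.12 and 6.34 FPKM in *Crlf2-/-* replicates 1, 2 and 3. The third replicate was the highest in both groups, and the group means nearly coincided at 4.81 ± 1.32 and 4.83 ± 1.62 FPKM (SD, n = 3). *Per2* (ENSMUSG00000055866, chromosome 1, 91415982 to 91459324, minus strand) was at 2.23, 2.52 and 3.62 FPKM in WT and at 4.39, 3.17 and 3.85 FPKM in *Crlf2-/-* libraries, in the same order of replicates. WT replicate 3 lay inside the *Crlf2-/-* range, so that the groups overlapped. The log2 fold change of *Per2* was 0.45 (standard error 0.20, limma adjusted p = 0.776). *Per3* (ENSMUSG00000028957, chromosome 4, 151003652 to 151044665, minus strand) showed nearly the same profile, at 2.08, 2.43 and 3.73 FPKM in WT and at 4.47, 2.92 and 3.65 FPKM in *Crlf2-/-* libraries. Its log2 fold change was 0.43 (standard error 0.24, limma adjusted p = 0.862). *Per2* and *Per3* were lowest in WT replicates 1 and 2, and highest in *Crlf2-/-* replicate 1.

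*Ciart* (also known as *Chrono*), which encodes a repressor of the ARNTL and CLOCK pair, was the scarcest of the 10 genes and the most variable. Its gene spans 95878503 to 95882251 on chromosome 3 (minus strand). Its level was 0.405, 0.827 and 0.971 FPKM in WT replicates 1, 2 and 3 and 1.45, 0.377 and 0.828 FPKM in *Crlf2-/-* replicates 1, 2 and 3. The highest library held 3.84 times the lowest. These values rest on 21, 41, 48, 72, 20 and 42 fragments in the same order, and the exact 95% Poisson intervals of 72 fragments (56.3 to 90.7) and of 20 (12.2 to 30.9), which cover counting error only, did not meet. Both extremes were *Crlf2-/-* libraries, and the log2 fold change between groups was 0.15 (standard error 0.45, limma adjusted p = 0.996). *Bhlhe41* (DEC2), a repressor that competes at E-boxes, was at 5.98, 5.69 and 5.15 FPKM in WT and at 7.13, 5.37 and 5.51 FPKM in *Crlf2-/-* libraries, so that *Crlf2-/-* replicate 1 stood above the other 5 libraries.

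**Figure D1:**
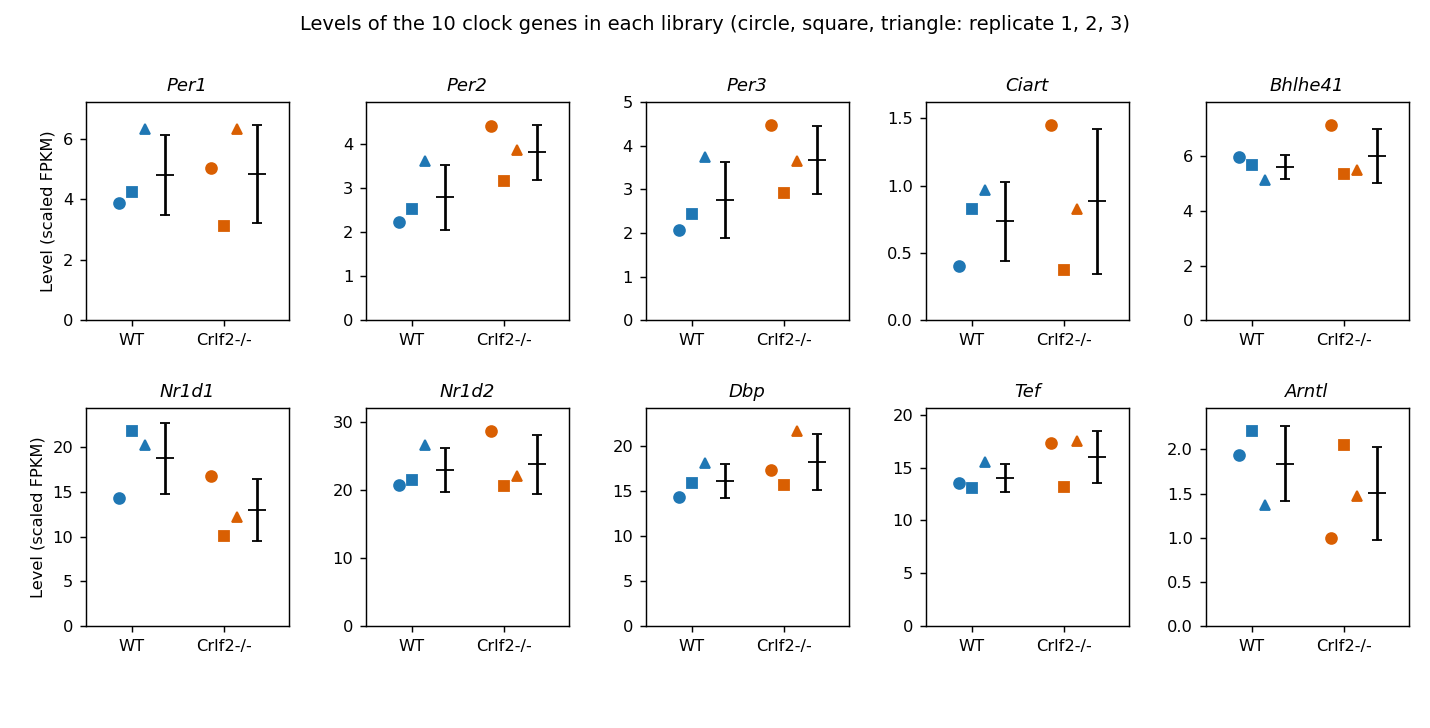
Level of each of the 10 clock genes (y axis, scaled FPKM, from 0) in WT (blue) and *Crlf2-/-* (orange) libraries. Circles, squares and triangles mark replicates 1, 2 and 3, and the black bars give the mean and SD of 3 libraries. The points of the groups overlap in all 10 panels, and the 3 libraries with the highest *Arntl* are those with the lowest *Per3*.

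The REV-ERB genes encode nuclear receptors that repress *Arntl*. *Nr1d1* (ENSMUSG00000020889, chromosome 11, 98767932 to 98775333, minus strand) was at 14.3, 21.8 and 20.3 FPKM in WT replicates 1, 2 and 3 and at 16.8, 10.03 and 12.2 FPKM in *Crlf2-/-* replicates 1, 2 and 3. WT replicate 1 was below *Crlf2-/-* replicate 1, and the other *Crlf2-/-* libraries were below all WT libraries. The mean was 18.8 ± 3.98 FPKM in WT and 13.0 ± 3.48 FPKM in *Crlf2-/-* mice (SD, n = 3), and the difference on the log2 scale was -0.54 (standard error 0.22, limma adjusted p = 0.725). An exact permutation test over the 6 libraries gave p = 0.2, where the smallest it allows is 0.1. The 3' end of *Nr1d1* shares 263 exon bases with *Thra*, a thyroid hormone receptor gene on the other strand, and whether strand was used in counting is not given in the sources used here. *Thra* had a log2 fold change of -0.14. *Nr1d2*, on chromosome 14, was the most abundant of the 10 genes, at 20.7, 21.4 and 26.7 FPKM in WT and at 28.7, 20.6 and 22.0 FPKM in *Crlf2-/-* libraries. It did not share the lower values of *Nr1d1*, and its log2 fold change was 0.05 (standard error 0.16, limma adjusted p = 0.996). The ratio of *Nr1d1* to *Nr1d2* was 0.690, 1.02 and 0.760 in WT and 0.587, 0.487 and 0.552 in *Crlf2-/-* libraries.

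*Dbp* and *Tef* encode activators of the PAR bZIP family, which bind D-boxes. *Dbp* was at 14.3, 15.8 and 18.1 FPKM in WT replicates 1, 2 and 3 and at 17.3, 15.7 and 21.6 FPKM in *Crlf2-/-* replicates 1, 2 and 3. *Tef* was at 13.5, 13.0 and 15.5 FPKM in WT and at 17.3, 13.1 and 17.5 FPKM in *Crlf2-/-* libraries. *Crlf2-/-* replicate 3 was the highest library for both genes. Their log2 fold changes were 0.17 (standard error 0.15) and 0.18 (standard error 0.14), with limma adjusted p-values of 0.955 and 0.943. *Dbp* shares 539 exon bases with *Sphk2* on the opposite strand.

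*Arntl* is the only gene of an E-box activator among the 10 genes, and it ran the other way. Its gene spans 113207465 to 113314126 on chromosome 7 (plus strand). Its level was 1.94, 2.21 and 1.37 FPKM in WT replicates 1, 2 and 3 and 0.997, 2.05 and 1.47 FPKM in *Crlf2-/-* replicates 1, 2 and 3, on 165 to 364 fragments per library. Thus WT replicate 3 and *Crlf2-/-* replicates 1 and 3 held less *Arntl* than the other 3 libraries. The mean was 1.84 ± 0.429 FPKM in WT and 1.50 ± 0.525 FPKM in *Crlf2-/-* mice (SD, n = 3), with a log2 fold change of -0.30 (standard error 0.27, limma adjusted p = 0.963). Within each group the library with the least *Arntl* was compared with its 2 companions. In WT this was replicate 3, which was the highest of the group for 7 of the other 9 genes (*Per1*, *Per2*, *Per3*, *Ciart*, *Nr1d2*, *Dbp* and *Tef*) and the lowest for 1, *Bhlhe41*. In *Crlf2-/-* mice it was replicate 1, which was the highest for 6 of 9 (*Per2*, *Per3*, *Ciart*, *Bhlhe41*, *Nr1d1* and *Nr1d2*) and the lowest for 0. Values were also taken without *Crlf2-/-* replicate 2, which held the atrial markers, and without WT replicate 3, which held the lung markers. The log2 fold change was then 0.58 and 0.65 for *Per2*, 0.58 and 0.67 for *Per3*, -0.37 and -0.47 for *Nr1d1* and -0.54 and -0.49 for *Arntl*, and 0 of the 10 genes were called either way. The value of *Arntl* rested most on *Crlf2-/-* replicate 1, without which it was -0.05, and without WT replicate 2 it was -0.16.

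Counted over all 6 libraries, the 9 genes other than *Arntl* were above their own mean for 1 gene in WT replicate 1, 2 in WT replicate 2, 8 in WT replicate 3, 9 in *Crlf2-/-* replicate 1, 0 in *Crlf2-/-* replicate 2 and 6 in *Crlf2-/-* replicate 3. The difference of *Arntl* from its mean in these libraries was 0.25, 0.43, -0.23, -0.65, 0.32 and -0.13 on the log2 scale. Every library with *Arntl* above its mean therefore had at most 2 of the 9 genes above theirs, and each group held libraries of both kinds. The ratio of *Per3* to *Arntl* spanned 1.07 in WT replicate 1 to 4.48 in *Crlf2-/-* replicate 1. It was 1.10 and 2.73 in WT replicates 2 and 3, and 1.43 and 2.48 in *Crlf2-/-* replicates 2 and 3. The ratio of *Dbp* to *Arntl* followed the same split, at 7.35, 7.18 and 13.2 in WT and at 17.4, 7.65 and 14.7 in *Crlf2-/-* libraries.

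**Figure D2:**
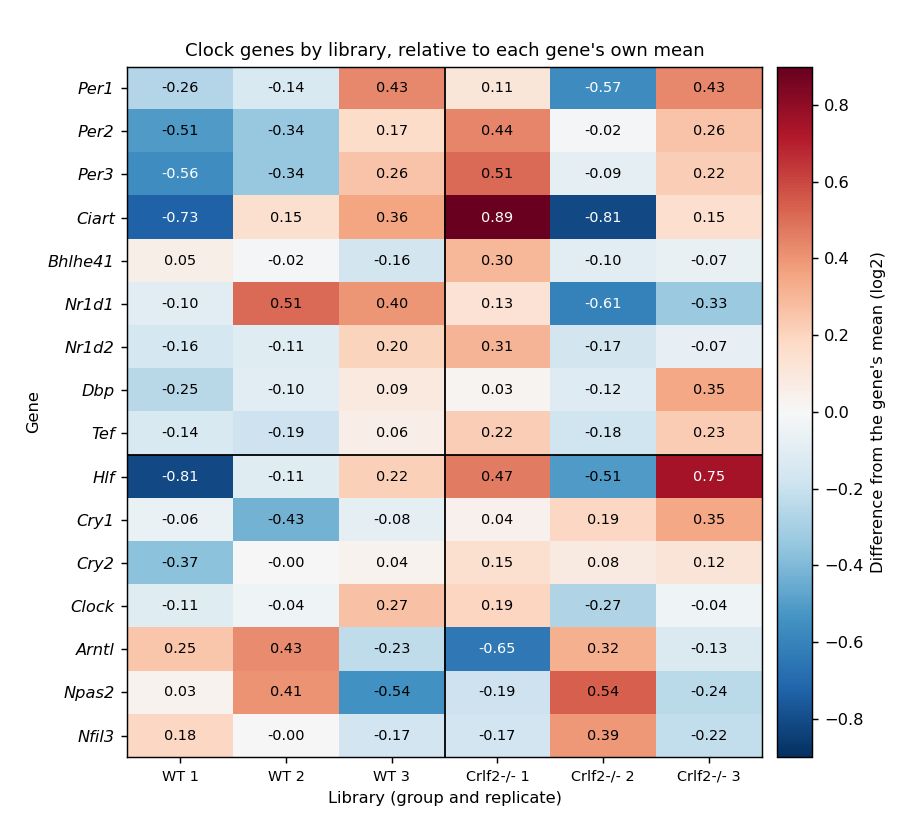
Difference of each gene from its own mean over 6 libraries (colour and printed value, log2 scale) for the clock genes (rows) in each library (columns). Rows above the horizontal line are the 9 members other than *Arntl*. *Crlf2-/-* replicate 1 is above the mean in all 9 of those rows and at -0.65 for *Arntl*, and *Crlf2-/-* replicate 2 is below the mean in all 9 and at 0.32 for *Arntl*.

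Pearson's r between *Arntl* and each of the other 9 genes over the 6 libraries was negative for 9 of 9. It was -0.91 for *Nr1d2* (exact permutation p = 0.00694, adjusted over the 9 relations 0.0625), -0.90 for *Tef* (exact permutation p = 0.0319, adjusted 0.0719), -0.89 for *Per3* (exact permutation p = 0.0264, adjusted 0.0719) and -0.85 for *Per2* (exact permutation p = 0.0319, adjusted 0.0719). Spearman's rho was -0.83, -0.83, -0.83 and -0.77, with exact permutation p-values of 0.0583, 0.0583, 0.0583 and 0.103 (adjusted 0.131, 0.131, 0.131 and 0.185). No relation passed 0.05 after adjustment. For *Ciart* r was -0.79 (exact permutation p = 0.0792, adjusted 0.143, rho -0.83). *Per1*, *Dbp* and *Bhlhe41* had r of -0.65, -0.53 and -0.53 (exact permutation p = 0.167, 0.289 and 0.286, adjusted 0.25, 0.325 and 0.325) and rho of -0.60, -0.54 and -0.14 (exact permutation p = 0.242, 0.297 and 0.803). With rho of -0.03 (exact permutation p = 1), *Nr1d1* had the weakest relation, at -0.16 (exact permutation p = 0.763), which became -0.65 with each group's mean subtracted. Without WT replicate 2 and *Crlf2-/-* replicate 1, the libraries farthest from the median of *Arntl*, r was -0.85 for *Nr1d2*, -0.86 for *Tef*, -0.80 for *Per3* and -0.71 for *Per2*. It turned to 0.54 for *Bhlhe41*, whose relation thus rested on those libraries. With the group means subtracted, r was -0.94 for *Nr1d2*, -0.88 for *Tef* and -0.88 for *Per3*. A group holds too few libraries for an r of its own. Among the 9 genes, 32 of 36 pairs had a positive r, with a median of 0.60 and the highest value, 0.99, between *Per2* and *Per3*.

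**Figure D3:**
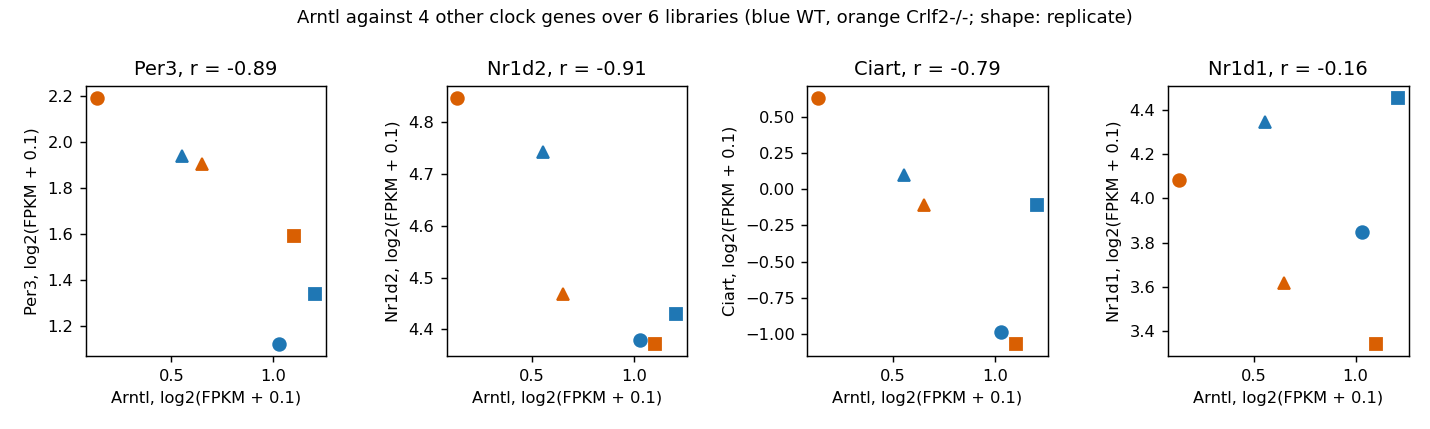
*Arntl* (x axis) against *Per3*, *Nr1d2*, *Ciart* and *Nr1d1* (y axes), all as log2(FPKM + 0.1), with 1 point for each of 6 libraries (blue WT, orange *Crlf2-/-*, and circle, square and triangle for replicates 1, 2 and 3). The first 3 panels run downwards, with r of -0.89, -0.91 and -0.79, while *Nr1d1* has r of -0.16.

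Levels in these libraries also differed by gene length, in a similar order. The median log2 difference from the mean of the longest 10% of tested genes minus that of the shortest 10% was -0.24, -0.17 and 0.28 in WT replicates 1, 2 and 3 and 0.24, -0.22 and 0.03 in *Crlf2-/-* replicates 1, 2 and 3. Messages for 81 ribosomal proteins, which are short, differed from their mean by medians of 0.18, 0.11, -0.14, -0.15, 0.09 and -0.06 in the same order. *Per3*, at 9608 bases, and *Tef*, at 7867 bases, are long and ran with the long genes. *Ciart*, at 2261 bases, mostly ran with them too, and *Arntl*, at 7523 bases, ran against them. After the median of genes of like length was subtracted in each library, a step added after seeing the data, r with *Arntl* was -0.91 for *Nr1d2*, -0.83 for *Ciart*, -0.81 for *Tef*, -0.81 for *Per3* and -0.81 for *Per2*. It was -0.68 for *Per1*, -0.65 for *Dbp*, -0.35 for *Bhlhe41* and -0.28 for *Nr1d1*. The exact permutation p adjusted over the 9 relations was then 0.075 for *Nr1d2* and 0.105 for *Ciart*, *Tef*, *Per3* and *Per2*, and 0 of the 10 genes were called. Many other genes followed the same order of libraries. Of 15396 tested genes outside all the lists, 392 had r of at least 0.9 with the mean of the 9 members, led by *Spg11* (0.997), *B230354K17Rik* (0.995), *Slc27a6* (0.989), *Nrp2* (0.986) and *Chd8* (0.986). With *Arntl*, 330 genes had r of at least 0.9, led by *Rpl35* (0.989), *Ndufc1* (0.988), *Map2k3* (0.987), *Halr1* (0.986) and *Grcc10* (0.986). A negative r of at least 0.9 in size was found for 301 genes with *Arntl* and for 350 with the mean of the 9 members. Running against *Arntl* over these libraries was thus not particular to clock genes. These are descriptions over 6 libraries of similar depth, whose levels differ by gene length as given above.

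**Figure D4:**
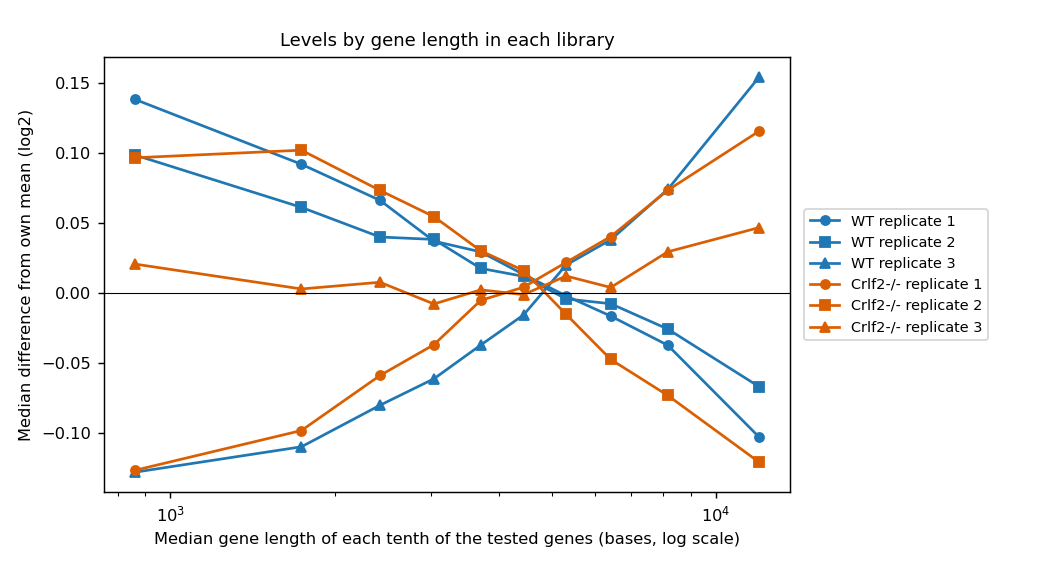
Median log2 difference from the mean over 6 libraries (y axis) for the tested genes split by length into 10 equal sets (x axis, median length in bases, log scale), with 1 line per library (blue WT, orange *Crlf2-/-*, and circle, square and triangle for replicates 1, 2 and 3). WT replicates 1 and 2 and *Crlf2-/-* replicate 2 slope downwards, WT replicate 3 and *Crlf2-/-* replicate 1 slope upwards, and *Crlf2-/-* replicate 3 is nearly flat.

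Most of the 10 clock genes varied more between mice of 1 group than the median gene did. Their median SD within groups was 0.324 on the log2 scale, beside 0.196 over all tested genes, and 8 of the 10 were above that median. *Ciart* had an SD of 0.727, at percentile 97.7 of all tested genes, followed by *Per1* (0.445, percentile 89.0), *Arntl* (0.417, percentile 87.3), *Per3* (0.366, percentile 82.7) and *Nr1d1* (0.350, percentile 80.9). *Tef* (0.189, percentile 47.4) and *Bhlhe41* (0.175, percentile 42.6) were the steadiest of the 10. The SD of low genes depends on the pseudocount, and with a pseudocount of 1 it was 0.345 for *Ciart* and 0.268 for *Arntl*. The 6 kinase and ubiquitin ligase genes of the clock had a median SD of 0.125. Their SD ran from 0.040 to 0.345, and the highest rested on 5 to 28 fragments. The steadiest were the casein kinase genes *Csnk1d* (0.040) and *Csnk1e* (0.060), whose products set the stability of the PER proteins.

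The other genes of the clock lists, 26 in number with 25 tested, likewise had 0 called genes. At an unadjusted p under 0.05, 1 was higher and 3 were lower in *Crlf2-/-* hearts, and the groups did not overlap for *Cry1* and *Cry2*, which were above, and *Tsc22d3*, which was below. Over all tested genes these shares were 6.54% and 11.8%, so 3 of 25 without overlap is near the background. The 1 higher and 3 lower of 25 at an unadjusted p under 0.05 are together above their share, which was not tested. *Cry1*, the partner of the PER repressors, was at 3.05, 2.35 and 3.01 FPKM in WT and at 3.28, 3.65 and 4.10 FPKM in *Crlf2-/-* libraries, with a log2 fold change of 0.38 (standard error 0.15, limma adjusted p = 0.693). *Cry2* was at 2.34, 3.05 and 3.13 FPKM in WT and at 3.40, 3.23 and 3.32 FPKM in *Crlf2-/-* libraries, with a log2 fold change of 0.23 (standard error 0.14, limma adjusted p = 0.899). An exact permutation test gave p = 0.1 for each, the smallest it allows. Without WT replicate 1 the log2 fold change of *Cry2* was 0.10. WT replicate 2 was the lowest library for *Cry1* and WT replicate 1 for *Cry2*.

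The remaining loop genes are given by library. *Npas2*, which can stand in for *Clock*, was at 0.446, 0.609 and 0.267 FPKM in WT and at 0.370, 0.676 and 0.354 FPKM in *Crlf2-/-* libraries, on 28 to 76 fragments. *Nfil3*, which encodes a repressor at D-boxes, was at 6.13, 5.38 and 4.76 FPKM in WT and at 4.78, 7.09 and 4.60 FPKM in *Crlf2-/-* libraries. For both genes, as for *Arntl*, WT replicates 1 and 2 and *Crlf2-/-* replicate 2 were the highest libraries. *Hlf*, the third PAR bZIP gene, was at 0.640, 1.11 and 1.41 FPKM in WT and at 1.69, 0.810 and 2.08 FPKM in *Crlf2-/-* libraries. Those same libraries were its lowest, as they were for *Dbp*, *Per2* and *Per3*. *Clock* was at 3.69, 3.88 and 4.81 FPKM in WT and at 4.57, 3.28 and 3.88 FPKM in *Crlf2-/-* libraries. Log2 fold changes were 0.07 for *Npas2*, -0.0037 for *Nfil3*, 0.47 for *Hlf* and -0.08 for *Clock*, each with a limma adjusted p of at least 0.953. The value for *Hlf* was 0.18 without WT replicate 1 and 0.84 without *Crlf2-/-* replicate 2.

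**Figure D5:**
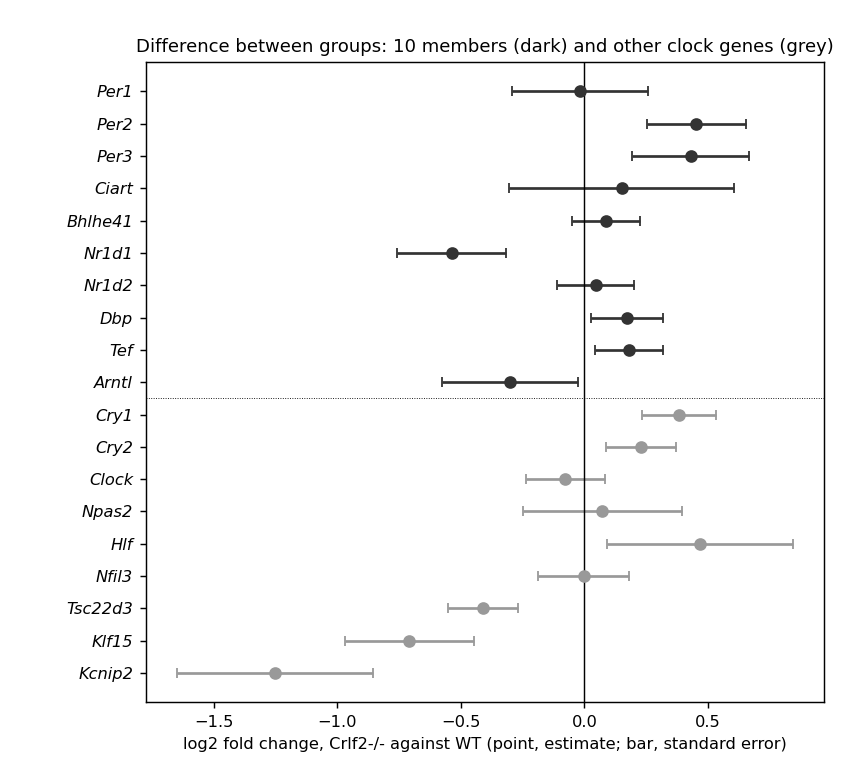
Log2 fold change of *Crlf2-/-* against WT (x axis, point) with its standard error (bar) for the 10 members (dark, above the dotted line) and 9 other clock genes (grey). *Nr1d1*, at -0.54, is the lowest member and *Per2*, at 0.45, the highest, and no gene shown was called.

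By role, the counts of genes at an unadjusted p under 0.05 were 0 of 4 activators, 1 higher of 8 repressors (*Cry1*), 1 lower of 4 tested nuclear receptors (*Nr1d1*), 0 of 4 D-box factors, 0 of 6 kinases and ligases and 3 lower of 9 clock outputs. Over all 15520 tested genes, 510 were higher and 505 lower at that threshold, which is 6.54% in either direction. The outputs were *Tsc22d3* (log2 fold change -0.41), *Klf15* (-0.71) and *Kcnip2* (-1.25), which encode a glucocorticoid-induced leucine zipper protein, a transcription factor of heart metabolism and a potassium channel subunit. *Klf15* was at 1.41, 1.60 and 1.79 FPKM in WT and at 0.798, 0.703 and 1.44 FPKM in *Crlf2-/-* libraries, and *Kcnip2* at 0.477, 0.761 and 0.790 FPKM and at 0.105, 0.172 and 0.487 FPKM, on 8 to 60 fragments. The log2 fold change of *Kcnip2* was -0.42 with a pseudocount of 1 and -1.63 with voom, and that of *Klf15* was -0.41 with a pseudocount of 1. For both, *Crlf2-/-* replicates 1 and 2 were the lowest libraries, and the same libraries had the lowest summed cardiomyocyte markers, at 908 and 837 FPKM. The part of that difference in these values was not tested.

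Signals that can shift clocks were read from 3 further lists, with 0 genes called by limma. The study, with its count test, reported *Zbtb16* and *Hsph1* of these lists as downregulated in *Crlf2-/-* hearts. Of 9 glucocorticoid response genes, 4 were lower at an unadjusted p under 0.05, and for all 4 the groups did not overlap, beside 6.54% and 11.8% of all tested genes. They were *Zbtb16* (log2 fold change -1.79, limma adjusted p = 0.0859), *Fkbp5* (-0.94), *Tsc22d3*, named above, and *Mt1* (-0.36). Over all 9 genes of the list, the log2 fold change was below 0 for 5 and above 0 for 4, with a median of -0.20. *Fkbp5* was at 15.3, 10.5 and 6.29 FPKM in WT and at 5.03, 5.94 and 4.68 FPKM in *Crlf2-/-* libraries. *Per1*, which is induced by glucocorticoids and is driven by the clock as well, had another order of libraries. Whether such a signal acted on the clock genes was not tested. Of 10 immediate early genes, 1 was higher, *Fos* (log2 fold change 0.59). Of 8 temperature response genes, the cold-inducible *Cirbp* was higher (0.45), and the heat shock genes *Hsph1* (-0.77) and *Hspa8* (-0.45) were lower, each at an unadjusted p under 0.05 and without overlap between groups. The same shares over all tested genes stand beside these counts.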

How the data were processed

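RNA from hearts of 3 WT and 3 *Crlf2-/-* mice was sequenced. The authors trimmed reads with fastp, aligned them with HISAT2 2.0.5, counted fragments with featureCounts and deposited FPKM with a gene length for each gene. The submitters' processing notes list the builds hg38 and mm10, and gene positions equal those of GENCODE M21 (GRCm38) for all 10 clock genes. The table held 0 columns of other samples. Fragments were recovered from the FPKM as whole numbers (100% of nonzero values, within 0.02).

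Libraries were brought to a common scale with TMM factors computed on these fragments, and all levels given are FPKM on that scale. The authors used a count test, which at the same thresholds called more genes in their study than limma did here. Because the deposited unit is FPKM, limma 3.58.1 in R 4.3.3 (trended, robust eBayes) was fitted to log2(FPKM + 0.1), a scale that understates changes of low genes, for the 15520 genes that reached 10 fragments in 3 or more libraries and 15 over all libraries. Exact permutation tests were two-sided. Replicates are separate mice. The fit was tested on simulated data. The members, the clock lists, the signal lists and the marker lists were chosen with earlier results of these data known. No gene of any marker list was called by limma, whereas the study reported *Lck* and *Cd3e* of the T cell list as downregulated. Named genes were all members, *Clock*, *Npas2*, *Cry1*, *Cry2*, *Nfil3* and *Hlf*, every other listed gene with an unadjusted p under 0.05 or without overlap between groups, and the 5 nearest genes by r. The remaining genes named are markers or overlapping genes, and *Csnk1d* and *Csnk1e* were named after their values were seen. Alternatives were other scalings, filters and pseudocounts, limma's voom on the fragments, a replicate block, leaving out each library, and subtraction of the length profile. Other steps ran in Python 3.11.15 (pandas 2.3.3, scipy 1.17.1, numpy 2.4.6) and figures in matplotlib 3.10.9.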

Additional observations from a re-analysis of the deposited data

How the results depend on the processing

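The count of called clock genes was 0 under every alternative run, for the 10 members and for the other clock genes. Of all tested genes, 2 were called, which became 6 with no filter, 1 with at least 10 fragments in every library, 4 with the replicate block, 4 with the length profile subtracted (added after seeing the data), and 1 to 14 when each library was left out, with 14 without *Crlf2-/-* replicate 1 and 8 without WT replicate 3. Mice that share a replicate number in the labels deviated from their group means with correlations of -0.016, 0.115 and 0.119. Unlike-numbered mice were not compared in this way, so these values cannot settle whether the numbers pair mice, and the labels do not say. The replicate block changed no call of a clock gene.

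Leaving out a library turned the sign of some log2 fold changes that were near 0, with ranges of -0.24 to 0.26 for *Per1*, -0.096 to 0.16 for *Nr1d2*, -0.26 to 0.59 for *Ciart*, -0.040 to 0.16 for *Bhlhe41*, -0.19 to 0.038 for *Clock*, -0.18 to 0.29 for *Npas2* and -0.20 to 0.11 for *Nfil3*, which was also at 0.0085 with the length profile subtracted. *Nr1d1* (-0.74 to -0.37) and *Arntl* (-0.54 to -0.054) stayed below 0, and *Per2* (0.31 to 0.65), *Per3* (0.26 to 0.67), *Dbp* (0.041 to 0.27), *Tef* (0.11 to 0.31), *Hlf* (0.18 to 0.84), *Cry1* (0.26 to 0.46) and *Cry2* (0.099 to 0.30) above 0. Low counts limit *Ciart*, *Npas2* and *Kcnip2* among the genes named, and an exact test of 3 mice against 3 cannot go below p = 0.1.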
